A study of Mus musculus with 9 samples.

Results

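The 5 keratin genes Krt7, Krt8, Krt18, Krt19 and Krt23 of simple, single-layered epithelia were followed in dorsal pancreatic epithelium dissected from mouse embryos at e12.5. They were found by gene symbol among the 18541 genes of the deposited tables, each of which has 1 Agilent probe, and the Entrez numbers gave the same current symbols for all 5. Cy3-labelled RNA of 9 samples was hybridised to 1-colour arrays, 3 samples for each of 3 genotypes, and each sample pooled 3 dorsal pancreata. Samples labelled Sox9 het carry a floxed Sox9 allele recombined by Foxa3-Cre, a transgene that expresses Cre recombinase under Foxa3 control (Sox9fl/+; Foxa3-Cre). Samples labelled Pdx1 het carry a LacZ knockout allele of Pdx1 (Pdx1-/+), and the label names no Cre transgene. Samples labelled double het carry all of these (Sox9fl/+; Foxa3-Cre; Pdx1-/+), are described as littermates of the others, and differ from the Pdx1 hets by the Sox9 allele and by the transgene together. No wild-type group was analysed here, so every difference is between heterozygotes. Values below are the deposited normalised intensities, or log2 of them, and an intensity is not compared between probes because probes differ in brightness.

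Keratins are intermediate filament proteins that polymerise only as pairs of an acidic type I chain and a basic type II chain. Krt8 (type II) and Krt18 (type I) form the basic filament of simple epithelia, including the early pancreatic bud, and Krt7 (type II) and Krt19 (type I) are added in ducts and duct-like epithelium. Krt19 is widely used as a marker of pancreatic ducts, and Krt23 is a type I keratin whose function is less well known. The SOX-family factor Sox9 and the homeodomain factor Pdx1 act in progenitor cells of the pancreas, and by its title the series sought genes under joint control of both.

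The promoters of Krt8, Krt18 and Krt23 are shown because the first pair encode partner chains and lie next to each other on chromosome 15, and Krt23 had the widest difference from the Pdx1 hets among the 5. RefSeq sequences (GRCm38.p6) hold 250 bases before and 50 after the annotated start, written 5′ to 3′ on the strand of the gene, and were matched for 4 of the 5 genes. Capitals mark ACAAT, the core that SOX factors bind, and TATAAA, the TATA box, on either strand.
Krt8, chr15:102004293-102004592, minus strand: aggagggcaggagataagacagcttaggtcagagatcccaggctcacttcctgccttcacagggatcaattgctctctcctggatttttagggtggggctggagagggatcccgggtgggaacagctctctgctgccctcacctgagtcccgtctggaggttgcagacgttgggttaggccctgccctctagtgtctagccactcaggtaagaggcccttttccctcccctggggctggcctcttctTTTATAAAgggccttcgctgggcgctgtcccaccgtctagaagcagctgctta
Krt18, chr15:102027966-102028265, plus strand: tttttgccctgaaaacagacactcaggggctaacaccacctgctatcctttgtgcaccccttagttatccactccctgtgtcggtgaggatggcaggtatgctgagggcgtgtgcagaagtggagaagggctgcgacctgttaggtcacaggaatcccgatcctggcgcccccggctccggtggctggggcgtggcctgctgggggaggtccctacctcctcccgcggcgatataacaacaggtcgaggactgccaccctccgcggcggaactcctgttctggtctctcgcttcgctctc
Krt23, chr11:99493071-99493370, minus strand: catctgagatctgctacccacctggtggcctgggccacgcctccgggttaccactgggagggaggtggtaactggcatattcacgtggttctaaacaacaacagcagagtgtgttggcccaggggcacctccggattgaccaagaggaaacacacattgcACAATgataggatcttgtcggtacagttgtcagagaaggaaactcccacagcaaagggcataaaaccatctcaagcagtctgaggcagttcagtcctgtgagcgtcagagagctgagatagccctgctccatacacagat
Krt23 held 1 ACAAT on its own strand, whose first base lies at position -90 from the annotated start. Krt8 held TATAAA once on each strand in overlap, with first bases at positions -3 and -1, so both matches cross the annotated start. Neither ACAAT nor TATAAA was in the Krt18 window or in that of Krt7. The homeodomain core TAAT, on either strand, was in none of the 4 windows. Among 32851 RefSeq promoter windows of the same length 31% held ACAAT, 58% TAAT and 13.6% TATAAA, and the windows of these keratins had GC contents of 53.0% to 66.3% against a median of 52.7%. These matches describe letters in a window and no binding was measured.

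The 9 arrays had nearly equal distributions, with medians of 347 to 353 and lower quartiles of 117 to 122. Pearson correlations between arrays over all probes ran from 0.98 to 0.996, and double het replicate 3, whose title names both 3 and 4, stood farthest from the others (0.98 to 0.992). Sox9 intensity was 294, 294 and 325 in the Sox9 hets, 198, 234 and 239 in the Pdx1 hets, and 292, 328 and 381 in the double hets. It was therefore not lower in the samples labelled as having lost a Sox9 allele, all of which lay above the Pdx1 hets. The log2 difference from the Pdx1 hets was 0.57 in the double hets and 0.45 in the Sox9 hets, and neither passed the test used below. Because no source here places the probe relative to the deleted part, Sox9 does not check the labels. Pdx1 intensity was 1316 to 1573 in the Sox9 hets, 1080 to 1132 in the Pdx1 hets and 1143 to 1352 in the double hets. Genotypes below are those of the labels.

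Krt19 rose in the double hets against the Sox9 hets and was the only one of the 5 keratins to pass a test across all genes (limma, Benjamini-Hochberg adjusted p under 0.05). Krt8 leaned the same way, Krt7 and Krt18 differed by less, and Krt23 had its highest values in the Pdx1 hets. The 95% interval of the double het minus Sox9 het difference on the log2 scale was 0.55 to 1.12 for Krt19, 0.11 to 0.57 for Krt8, -0.25 to 0.15 for Krt18, -0.35 to 0.06 for Krt7 and -0.32 to 0.64 for Krt23. In this comparison 1 of the 5 keratins passed, beside 0.307% of all genes (57 of 18541, with 0.0917% higher and 0.216% lower). In the comparison with the Pdx1 hets 0 of the 5 passed, beside 0.108% of all genes (0.0378% higher, 0.0701% lower), and between the single hets 0 of the 5, beside 0.232% (0.151% higher, 0.0809% lower). At an unadjusted p under 0.05 the same limma fit had 2 of the 5 in each comparison, beside 27.4%, 16.1% and 6.29% of all genes. Against the Sox9 hets the keratins' median log2 difference was 0.16, beside -0.00092 over all genes.

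**Figure D1:**
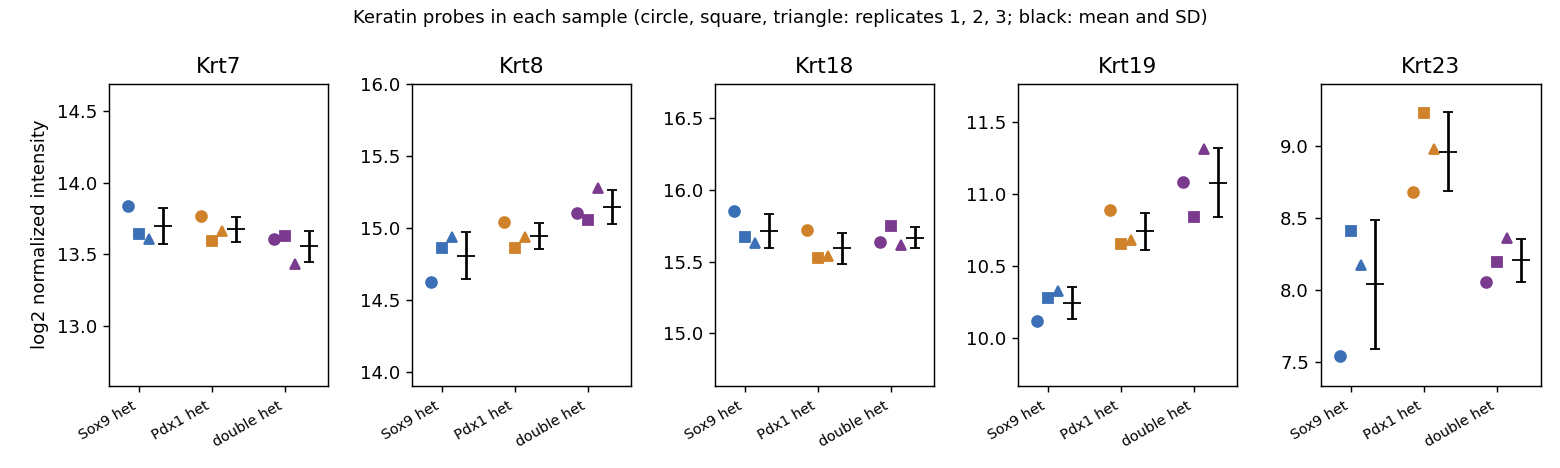
Log2 normalised intensity of each keratin probe (vertical axis, the same span in every panel) in the 3 samples of each genotype, with symbols for replicate numbers and the mean and SD in black. Krt19 is lowest in every Sox9 het sample, Krt23 is highest in every Pdx1 het sample, and Krt7 and Krt18 overlap between all groups.

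Krt19, the type I keratin of duct-like epithelium, had intensities of 1111, 1243 and 1285 in the Sox9 hets. It had 1605, 1640 and 1897 in the Pdx1 hets and 1828, 2167 and 2548 in the double hets. All 3 Sox9 het samples lay below all 6 others, and the Pdx1 and double hets overlapped. The mean log2 intensity was 10.24 ± 0.11 (SD, n = 3, as for all groups) in the Sox9 hets, 10.74 ± 0.13 in the Pdx1 hets and 11.08 ± 0.24 in the double hets. Krt19 was 1.79-fold higher in the double than in the Sox9 hets, a log2 difference of 0.84 (SE 0.13, adjusted p = 0.0341). Against the Pdx1 hets the log2 difference was 0.34 (95% interval 0.06 to 0.62, adjusted p = 0.257), which did not pass and was 0.22 without double het replicate 3. The Sox9 hets stood 0.50 below the Pdx1 hets on the log2 scale (95% interval of the difference -0.78 to -0.22, adjusted p = 0.296), without overlap of samples and without passing. In bulk samples such as these, fewer cells of a type and less RNA per cell cannot be told apart.

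The call on Krt19 lay close to the threshold. It was lost with the replicate number as a block (adjusted p = 0.0542) and with only the groups compared in the fit (adjusted p = 0.126). With 1 sample left out at a time the log2 difference from the Sox9 hets stayed between 0.72 and 0.96, while the adjusted p ran from 0.0229 to 0.145 and was above 0.05 in 8 of 9 cases, all except that without double het replicate 2. Without double het replicate 3, the array that stood apart, the difference was 0.72 (adjusted p = 0.0668).

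Krt8, the type II partner of Krt18, had intensities of 25326, 29773 and 31435 in the Sox9 hets, 29788, 31439 and 33780 in the Pdx1 hets, and 34032, 35252 and 39875 in the double hets. Every double het sample was above every single het sample, narrowly so for Pdx1 het replicate 1. The fold was 1.26 over the Sox9 hets (log2 difference 0.34, SE 0.10, adjusted p = 0.112). Over the Pdx1 hets it was 1.15 (log2 difference 0.20, 95% interval -0.03 to 0.43, adjusted p = 0.355), and the log2 difference was 0.13 without double het replicate 3. Neither passed, and the single hets overlapped each other, with a log2 difference of -0.14 for Sox9 minus Pdx1 hets (adjusted p = 0.867).

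Krt18, the type I partner, had intensities of 50656 to 59053 in the Sox9 hets, 47106 to 53904 in the Pdx1 hets and 50162 to 55002 in the double hets. All groups overlapped. Its log2 differences were -0.05 against the Sox9 hets and 0.07 against the Pdx1 hets (95% interval of the latter -0.13 to 0.27, adjusted p = 0.723 and 0.672). Krt7, the type II keratin that accompanies Krt19 in ducts, ranged from 12483 to 14663 in the Sox9 hets, from 12376 to 13946 in the Pdx1 hets and from 11073 to 12648 in the double hets, again with overlap. Its log2 differences were -0.14 against the Sox9 hets and -0.12 against the Pdx1 hets (95% interval of the latter -0.32 to 0.09, adjusted p = 0.322 and 0.5). The intervals of Krt7 and Krt18 in these comparisons leave room for changes of up to 0.35 on the log2 scale.

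Krt23, whose probe lay near the array median, had intensities of 186, 288 and 339 in the Sox9 hets, 410, 503 and 598 in the Pdx1 hets, and 266, 293 and 328 in the double hets. The Pdx1 het samples lay above all 6 samples that carry the floxed Sox9 allele and Foxa3-Cre, and those 6 overlapped. The log2 difference from the Pdx1 hets was -0.76 in the double hets (SE 0.21, adjusted p = 0.179) and -0.92 in the Sox9 hets (SE 0.21, adjusted p = 0.233), and neither passed. Double and Sox9 hets differed by 0.16 (95% interval -0.32 to 0.64), with Sox9 het replicate 1 the lowest of all samples. For the double hets against the Pdx1 hets, loss of a Sox9 allele and the presence of the Cre transgene cannot be told apart, and the Sox9 hets differ from the Pdx1 hets by the Pdx1 allele as well.

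**Figure D2:**
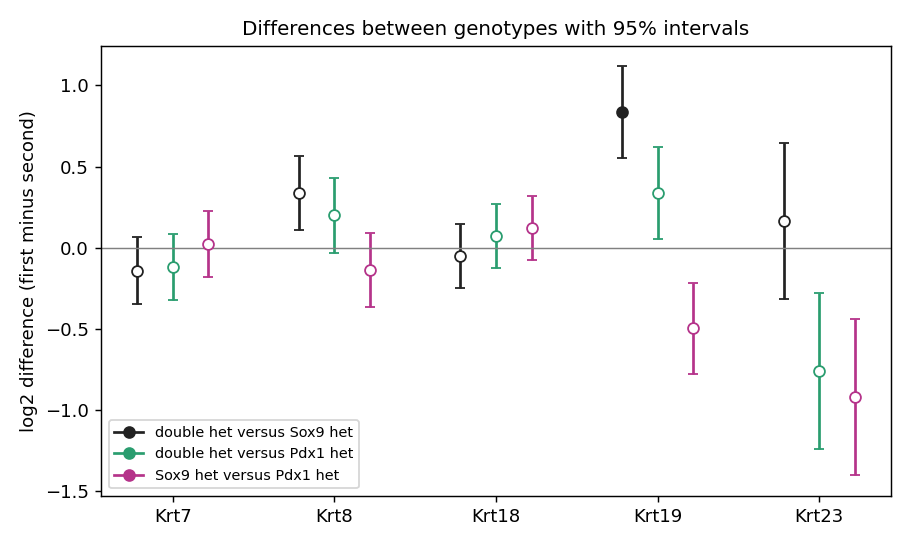
Log2 difference between genotypes (vertical axis, first named minus second) for each keratin with its 95% interval from the limma fit over 9 samples. The filled point is the Krt19 difference of 0.84 between double and Sox9 hets, which passed at an adjusted p of 0.0341, and open points did not pass.

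In each comparison 2 of the 5 keratins had samples that did not overlap between groups. These were Krt8 and Krt19, both higher in the double than in the Sox9 hets, where 35.3% of all genes did not overlap (18.6% higher, 16.7% lower). Against the Pdx1 hets they were Krt8, higher, and Krt23, lower, beside 22.9% of all genes (11.6% higher, 11.4% lower). Between the single hets they were Krt19 and Krt23, both lower in the Sox9 hets, beside 12.6% (6.54% higher, 6.04% lower). With 3 samples against 3 an exact two-sided permutation test cannot go below p = 0.1, so it could not pass for any gene alone.

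The authors' deposited FDR gave more calls than the test above. There, 23.1% of all genes in the authors' deposited table had an FDR under 0.05 against the Sox9 hets, among them Krt19 (FDR 6.24e-06) and Krt8 (FDR 0.00905). Against the Pdx1 hets 17.3% of genes did, among them Krt19 (FDR 0.00868) and Krt23 (FDR 3.85e-05) in the authors' deposited table. The authors' deposited log2 ratios equal the differences of group means computed here to within 4.3e-08. No source here states how the FDR was computed, and why it gave more calls was not tested.

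Differences of partner keratins were set against each other within each array, which removes any shift common to a sample (pairs chosen after values were seen, 9 comparisons). No comparison could pass, since the exact permutation test cannot go below 0.1. For the duct pair, log2 Krt19 minus log2 Krt7 was 0.98 higher in the double than in the Sox9 hets and 0.46 higher than in the Pdx1 hets. The groups did not overlap in either case (exact two-sided permutation p = 0.1 each, 0.15 after Benjamini-Hochberg adjustment). Krt19 minus Krt8 was 0.50 higher in the double than in the Sox9 hets without overlap, and 0.14 higher than in the Pdx1 hets with overlap (exact permutation p = 0.1 and 0.3, adjusted 0.15 and 0.337). For Krt8 minus Krt18 the excess in the double hets was 0.39 over the Sox9 hets and 0.13 over the Pdx1 hets, with overlap in both (exact permutation p = 0.2 and 0.4, adjusted 0.257 and 0.4). Without Sox9 het replicate 1 the 0.39 was 0.23. Without double het replicate 3 the excesses over the Pdx1 hets were 0.28 for Krt19 minus Krt7, 0.089 for Krt19 minus Krt8 and 0.033 for Krt8 minus Krt18. Without double het replicate 2 both of the latter were 0.21. In the Sox9 hets relative to the Pdx1 hets these log2 differences were -0.52, -0.36 and -0.26, all without overlap (exact permutation p = 0.1 each, adjusted 0.15), and the last was -0.10 without Sox9 het replicate 1.

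Across the 9 samples Krt8 and Krt19 had the highest Pearson r among the 10 pairs of these keratins (0.92). For deviations from the group means their r was 0.87, below that of Krt7 and Krt18. For Krt8 and Krt18 it was -0.35 (-0.42 for deviations), and for Krt7 and Krt18 0.63 (0.89 for deviations). These are descriptions over 9 samples that share genotypes and array processing. By the same measure, among the 4636 most variable genes, the profiles most like Krt19 were those of Spdef (r = 0.99, and 0.96 within groups), Nek6 (0.98 and 0.89) and Bex1 (0.97 and 0.85). Spdef is an ETS factor of secretory epithelial cells. The profiles most like the mean of Krt8 and Krt18 were Srprb, Wasf2 and Taf4, each at r = 0.93 (0.86, 0.81 and 0.81 within groups). Krt8 and Krt18 did not vary together, so likeness to their mean does not describe either gene alone.

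**Figure D3:**
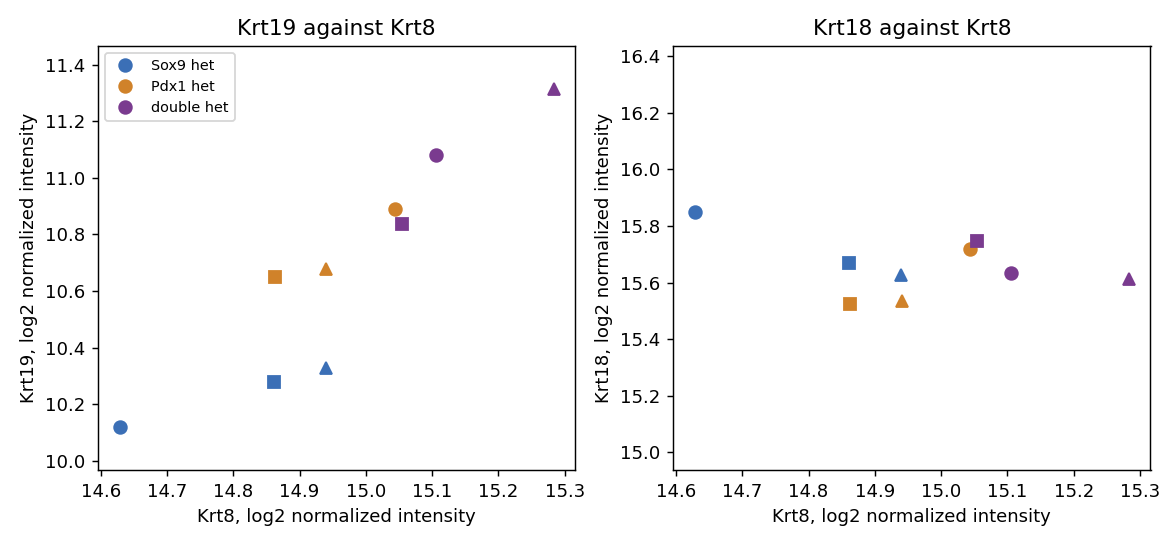
Log2 normalised intensity of Krt19 (left) and Krt18 (right) against that of Krt8 in the 9 samples, coloured by genotype, with circles, squares and triangles for replicates 1, 2 and 3. Krt19 climbs with Krt8 (r = 0.92) while Krt18 does not (r = -0.35).

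Of 47 other keratin genes listed, 31 had a probe. None passed in any of the 3 comparisons, and at an unadjusted p under 0.05 there were 2 higher and 1 lower against the Sox9 hets, 3 and 0 against the Pdx1 hets, and 1 and 1 between the single hets, beside 27.4%, 16.1% and 6.29% of all genes in either direction. Their median log2 difference from the Sox9 hets was -0.01. In 14 of the 31 the intensity was below the lower quartile of every array in all samples, among them Krt4, Krt6a and Krt6b of stratified epithelium (named after their values were seen).

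Krt20, the simple-epithelial type I keratin of intestine and stomach, had its lowest values in the Sox9 hets, as Krt19 did, but passed in no comparison. Its intensities were 186, 196 and 247 in the Sox9 hets, 308, 392 and 466 in the Pdx1 hets, and 279, 419 and 621 in the double hets. The Sox9 hets were below all other samples, and the rest overlapped. The fold over the Sox9 hets was 2.01 (log2 difference 1.0, SE 0.27, adjusted p = 0.104), which did not pass, and double and Pdx1 hets differed by 0.12 (95% interval -0.47 to 0.72). Krt20 and Krt19 had the only keratin differences over 0.5 in size between double and Sox9 hets. The basal keratins Krt5 and Krt14 of stratified epithelium stood at log2 differences of -0.36 and -0.28 in that comparison, with single samples spanning 272 to 794 and 150 to 333. Trp63, the factor of basal cells, had intensities of only 85 to 111.

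**Figure D4:**
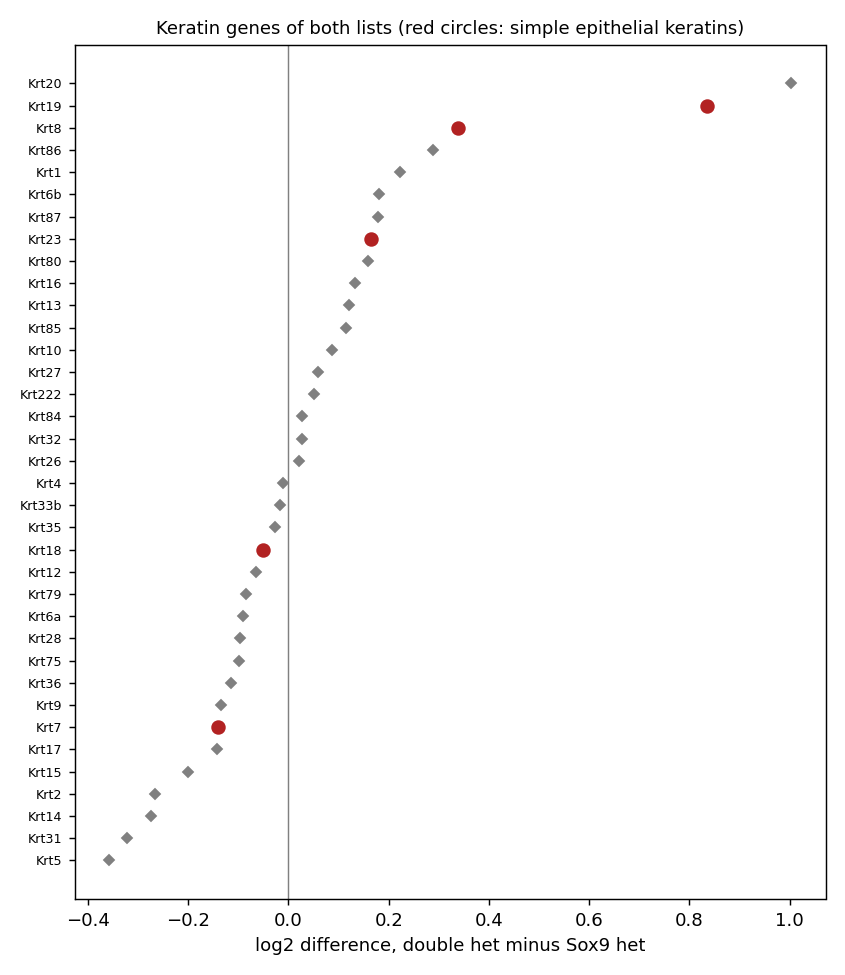
Log2 difference between double and Sox9 hets (horizontal axis) for the 31 other keratins measured (grey diamonds) and the 5 simple epithelial ones (red circles), in order of size. Krt20 at 1.0 and Krt19 at 0.84 lie apart from the rest.

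Genes that anchor, bind or modify keratin filaments gave no call among the 26 of 27 measured. At an unadjusted p under 0.05, 4 were higher and 4 lower in the double than in the Sox9 hets, and 3 and 2 against the Pdx1 hets, beside 27.4% and 16.1% of all genes. Itga6, the integrin alpha chain of hemidesmosomes, had the smallest p among them, with log2 differences of -0.55 and -0.43 (adjusted p = 0.0954 and 0.189). The integrin beta chain Itgb4, on the same list, stood at -0.03 against the Sox9 hets and -0.26 against the Pdx1 hets (adjusted p = 0.858 and 0.246). Eppk1, a keratin-binding plakin family member, stood at 0.37 against the Sox9 hets and periplakin (Ppl) at 0.30 against the Pdx1 hets (adjusted p = 0.149 and 0.205). Of the other intermediate filament genes 15 of 16 were measured and none passed. Nefl, a neurofilament chain, stood at -0.31 and synemin (Synm) at -0.38 against the Sox9 hets (adjusted p = 0.113 and 0.176).

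Because Krt8, Krt18 and Krt19 are also made by mesothelium and by gut epithelium, markers of these and other cells were read beside them. Of the epithelial markers Epcam lay between 8849 and 10988 and Cdh1 between 11087 and 14156 over all samples. The mesenchymal intermediate filament gene Vim lay between 63349 and 75025. These levels are not compared, because probes differ in brightness. Of 25 simple epithelial genes 0 passed, with 6 higher and 3 lower than in the Sox9 hets at an unadjusted p under 0.05 and a median log2 difference of 0.15. At that threshold 2632 of all 18541 genes were higher and 2439 lower, 27.4% together. Summed intensities, here and below, are weighted to the brightest probes of a list. For the 25 epithelial genes the sum was 101370 to 110016 in the Sox9 hets, 101606 to 111173 in the Pdx1 hets and 100547 to 114572 in the double hets. The 15 duct and trunk genes had a median difference of 0.18 and 0 calls. Their summed intensity ran from 50699 to 62757 in the Sox9 hets, below the Pdx1 hets at 65210 to 73841, and from 60464 to 68387 in the double hets. Gene by gene, their median log2 difference for Sox9 minus Pdx1 hets was only -0.07. At an unadjusted p under 0.05, 0 of the 15 were higher and 2 lower in the Sox9 hets, beside 6.29% of all genes in either direction. Among the duct and trunk genes Onecut1, a transcription factor of the duct lineage, had a log2 difference of 0.46 in the double hets from the Sox9 hets (adjusted p = 0.0938). Pkhd1, a ciliary protein of ducts, stood at -0.69 (adjusted p = 0.0799).

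All 12 mesothelial markers had probes and 0 passed, with 0 higher and 1 lower than in the Sox9 hets at an unadjusted p under 0.05, beside the same 27.4% of all genes. Their summed intensity was 6932 to 8435 in the Sox9 hets, 6529 to 8334 in the Pdx1 hets and 6660 to 7748 in the double hets. These ranges overlapped, and the part of mesothelium in the keratin values was not tested. Of its defining genes Wt1 lay between 707 and 1091, Upk3b between 386 and 527, and Msln between 100 and 270, near the lower quartile. The 12 intestinal markers measured had 4 higher and 0 lower against the Sox9 hets at that threshold and a median of 0.25, again beside 2632 higher and 2439 lower of all 18541 genes. Their summed intensity was 11902 to 12624, 12105 to 12645 and 12515 to 26651 in Sox9, Pdx1 and double hets. Prap1, on this list, ran from 116 to 10878 over all samples. Cdx2, the factor of intestinal identity, stood at 1.51 (adjusted p = 0.115). Its mean log2 intensity was 7.68 ± 1.23 in the double hets, which were uneven, and 6.17 ± 0.10 in the Sox9 hets, below the arrays' lower quartiles. Krt19 was highest in double het replicate 3. So was Krt20, which is on the intestinal list and among its 4 higher genes, at 621. The part of gut-type cells in the rise of Krt19 was not tested.

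Other cell types gave 1 call among their markers in the comparison with the Sox9 hets, the liver gene Itih2, higher by 1.40 on the log2 scale (adjusted p = 0.0386). The liver list, 14 of 15 measured, had a median log2 difference of 0.33 from the Sox9 hets and 0.30 from the Pdx1 hets. Its summed intensity of 95368 to 126990 in the double hets lay above 83598 to 85110 in the Sox9 hets and 85760 to 92789 in the Pdx1 hets. At an unadjusted p under 0.05 in the limma fit, 6 were higher and 1 lower against the Sox9 hets, and 7 and 0 against the Pdx1 hets. Over all genes 27.4% and 16.1% did so in either direction. Mesenchyme, endothelium, erythroid, white blood cell, neural, endocrine, stomach and acinar lists had 0 calls against the Sox9 hets, beside 0.307% of all genes. Of the 12 acinar and tip genes measured, 2 were higher and 5 lower than in the Sox9 hets at an unadjusted p under 0.05. Over all 18541 genes 2632 were higher and 2439 lower there. The median log2 difference of the acinar and tip genes was -0.30. Between the single hets 8 of the 12 were higher and 0 lower in the Sox9 hets, with a median of 0.64, beside 661 of all 18541 genes higher. Cela1, a pancreatic elastase, passed there with a log2 difference of 1.23 (adjusted p = 0.0407), and the protease gene Ctrc stood at 1.07 (adjusted p = 0.294). Against the Sox9 hets the 16 endocrine genes had 0 higher and 3 lower at an unadjusted p under 0.05, with a median of -0.20. The 18 mesenchymal genes had 5 higher and 1 lower at that threshold, with a median of -0.05. Both counts stand beside 2632 higher and 2439 lower of all 18541 genes. Among the mesenchymal genes fibronectin (Fn1) stood at 0.86 (adjusted p = 0.0851), and Lum stood the other way at -0.90 (adjusted p = 0.1465). Summed neural markers were 3269 to 3537 in the double hets against 4273 to 4566 in the Sox9 hets, and 9 of 14 were lower at an unadjusted p under 0.05, beside 2439 of all 18541 genes lower. The part of these cell types in the keratin values was not tested.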

How the data were processed

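Total RNA of 9 samples, amplified and labelled with Cy3, went onto Agilent arrays in 1 colour, as the labels' protocols describe. The value table holds 1 normalised intensity per gene and sample as the authors deposited it, and no source here names the normalization. The submitters' processing notes name limma without a role. The authors' deposited log2 ratios and FDR values (adjusted p-values, read as such per the file headers) come from a second table. Its 9 columns named by array barcode carry no sample label and were not used. Probes were named through that table, whose log2 ratios equal those of the value table within 4.3e-08, and 17183 of 18541 Entrez numbers matched RefSeq.

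Log2 intensities without further normalization or pseudocount were fitted in limma 3.58.1 (R 4.3.3) with a mean per genotype over all 9 samples and empirical Bayes moderation. Genes passed at a Benjamini-Hochberg adjusted p under 0.05 over all 18541, and the fit was tested on simulated data. Named genes were the 5 keratins, Sox9 and Pdx1, up to 4 genes of each list by smallest p, and the most similar profiles. Krt5, Krt14, Trp63, Epcam and Cdh1 and other markers given as ranges were chosen after their values were seen. Members and lists were chosen with earlier results of these data known. The series text calls the samples biological replicates. Detection flags were not used here, and the number of arrays limits the precision. Alternatives were other scalings, filters, variance models and weights, a replicate block, the deposited statistics and leaving out each sample.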

Additional observations from a re-analysis of the deposited data

How the results depend on the processing

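The number of genes passing depended strongly on the setting. Against the Sox9 hets it was 57, and 3 with only the groups compared in the fit, 92 without the dimmest 25% of probes, 3516 with array weights, 4292 by the authors' deposited FDR and 4 to 68 with single samples left out. Against the Pdx1 hets it was 20, and 2, 43, 3199 and 1 to 9 with only the groups compared, without dim probes, by the deposited FDR and with samples left out. Between the single hets it was 43, and 18 with the replicate block, 227 with array weights and 4 to 71 with samples left out. The array weights did not converge and gave Sox9 het replicate 2 a weight of 9.12 against 0.312 for double het replicate 3.

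For the 5 keratins, 243 of 265 values kept direction and side of the threshold. Much of this was fixed in advance, because several settings reuse the same log2 differences and nearly all of the 15 results did not pass to begin with. The only passing result, Krt19 against the Sox9 hets, kept its call in 8 of 18 settings. The Krt19 difference of 0.84 from the Sox9 hets lost its call with the replicate block (adjusted p = 0.0542), with only the groups compared (0.126) and in 8 of 9 fits without 1 sample (0.72 to 0.96, adjusted p 0.0229 to 0.145). With array weights Krt8 passed against the Sox9 hets at 0.25 (adjusted p = 0.0345) and Krt19 passed between the single hets at -0.47 (0.0429), Krt23 turned to -0.21 against the Sox9 hets and Krt7 to -0.032 between the single hets. Krt7 also turned to -0.0062 with quantile normalization. By the authors' deposited FDR, Krt8 passed at 0.34 against the Sox9 hets, and Krt19 at 0.34 and Krt23 at -0.76 against the Pdx1 hets. With samples left out, differences near 0 changed sign: Krt18 against the Sox9 hets ran from -0.094 to 0.017, the latter without Sox9 het replicate 1, Krt23 there from -0.085 to 0.35, with -0.085 without the same sample, and Krt7 between the single hets from -0.050 to 0.068, with sign changes without Sox9 het replicate 1 and Pdx1 het replicate 2.

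With array weights 2 other keratins, 1 other intermediate filament gene and 3 anchor genes passed against the Sox9 hets, and 1 filament gene between the single hets. The deposited FDR gave 2, 2 and 5 against the Sox9 hets, beside 23.1% of all genes. Against the Pdx1 hets it gave 2, 1 and 7, beside 17.3%. The cause of these changes was not tested. Same-numbered samples deviated together in 4 of 9 pairs (r over 0.1, range -0.177 to 0.239). Samples of different number were not set beside them, so this cannot decide whether the numbers pair the samples. The main fit did not pair them. For differences between partner keratins, no setting could pass, since the exact test cannot go below 0.1. Without detection flags, how far dim probes such as that of Krt23 stand above background is unknown.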

Other observations

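Over all genes the authors' deposited FDR against the Sox9 hets ranked with the size of the log2 ratio at a Spearman correlation of -0.92 and with the unadjusted p of the limma fit at 0.949, and against the Pdx1 hets at -0.891 and 0.928. All 57 and all 20 genes that passed the fit in these comparisons also had a deposited FDR under 0.05 in the authors' deposited table.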
